A study of Rattus norvegicus with 26 samples.

Results

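Transcripts of the glucocorticoid receptor Nr3c1 and of 9 genes tied to its action (Fkbp5, Sgk1, Tsc22d3, Zbtb16, Pdk4, Errfi1, Ddit4, Klf9 and Hsd11b1) were examined in the dentate gyrus (DG) of the rat hippocampus. They were chosen by name from 17910 Ensembl gene IDs with deposited values, and all 10 passed the filter on low values, a mean of 5 normalized counts or more, that left 15595 genes. RNA was measured in 26 male F344 rats, about 6 months old when treatment began, 1 library per rat, from the DG of a single hemisphere. The Dox group (n = 8) received doxorubicin (Dox), an anthracycline used in chemotherapy, at 2 mg/kg by intraperitoneal injection once a week for 4 weeks. The Dox+ABT group (n = 8) received the same injections and ABT-263, a senolytic that blocks anti-apoptotic relatives of Bcl-2, in oral doses of 12 mg/kg on 5 consecutive days in every other week. The Veh group (n = 10) received vehicle by gavage on the same schedule and came from an ongoing study of brain aging, and saline injections of this group are not described in the sources used here. All groups lived in a reversed light cycle, were tested for behavior after the treatments ended and were anesthetized with isoflurane before decapitation, and the hour of tissue collection and plasma corticosterone are not given in the sources used here.

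The glucocorticoid receptor is a nuclear receptor that rests in the cytoplasm in a complex with heat shock proteins and immunophilins. On binding corticosterone, the main glucocorticoid of the rat, it enters the nucleus and activates or represses genes through response elements in DNA. The hippocampus holds the receptor at a high level and takes part in the feedback on the stress axis. The enzyme encoded by Hsd11b1 regenerates active corticosterone inside cells, and the co-chaperone encoded by Fkbp5 is induced by the receptor and lowers its affinity for hormone, which forms a short feedback loop.

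The start regions of the 2 genes with the smallest p-values between Dox and Veh are shown because these genes carry that comparison. RefSeq windows of 300 bases (build GRCr8, 250 bases before to 50 after a start) were matched by symbol for 8 of the 10 genes, with 13 windows in all, and none was matched for Zbtb16 or Hsd11b1. The capitals mark the GC box GGGCGG on either strand, the CCAAT motif in Fkbp5 and the TATAAA motif in Sgk1, and no marked motifs overlap. The Fkbp5 window lies on the minus strand at chr20:6543506-6543805, and the Sgk1 window, 1 of 3 for that gene, on the minus strand at chr1:24804782-24805081.
Fkbp5: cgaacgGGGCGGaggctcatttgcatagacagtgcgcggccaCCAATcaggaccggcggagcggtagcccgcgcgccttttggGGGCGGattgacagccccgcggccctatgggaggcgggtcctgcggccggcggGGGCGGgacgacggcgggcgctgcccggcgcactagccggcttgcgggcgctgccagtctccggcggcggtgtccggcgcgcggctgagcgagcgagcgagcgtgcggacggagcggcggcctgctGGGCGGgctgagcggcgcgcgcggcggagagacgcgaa
Sgk1: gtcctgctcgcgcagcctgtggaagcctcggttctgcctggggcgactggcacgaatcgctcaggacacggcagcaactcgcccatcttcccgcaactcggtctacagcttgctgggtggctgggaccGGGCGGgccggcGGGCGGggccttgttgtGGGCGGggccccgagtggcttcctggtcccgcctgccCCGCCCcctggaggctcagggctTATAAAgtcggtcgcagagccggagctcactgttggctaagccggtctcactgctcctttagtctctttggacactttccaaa
Each window holds 4 GC boxes and 1 match of its other motif, and G and C make up 77% of the Fkbp5 window and 66% of the Sgk1 window. The GC box was found on either strand in 10 of the 13 windows, against 33.1% of 33469 windows of all genes, CCAAT in 6 of 13 against 37.5%, and TATAAA in 4 of 13 against 14.2%. The letters AGAACA, 1 arm of the receptor's paired response element, were found on either strand in 0 of the 13 windows and in 20.7% of all windows. These letters are thus not in these windows, which do not reach the distant enhancers.

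Estimated from the steps of the low values, the libraries held about 10163400 to 24344300 reads. The libraries fell into a first kind of 16 (4 Veh, 5 Dox, 7 Dox+ABT) and a second kind of 10 (6 Veh, 3 Dox, 1 Dox+ABT) along the first principal component, which held 28.4% of the variance within groups. Since both kinds occurred in every group, values adjusted for the kind (as a term of the fit) are also given for many of the results. Dox rats 1 and 2, both of the first kind, stood apart from the other 24 rats in several of the 10 genes, so results are also given without them. Their libraries were not copies of each other, since their squared differences were 15.3 times the counting variance on average. Over 101 pairs of libraries from the same group this ratio had a median of 82.2 and a lowest value of 5.83. The pair was thus more alike than most pairs, and the ratio cannot decide whether the 2 rats shared their handling. The labels number separate animals, so p-values measure the spread between rats.

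The receptor transcript itself did not pass the threshold of p under 0.01 in any comparison over all rats. Normalized counts of Nr3c1 were 672 to 1068 in Veh with a median of 768, 555 to 928 in Dox with a median of 709.6, and 639 to 1201 in Dox+ABT with a median of 911. The lowest 2 of the 26 rats were Dox rats 2 and 1, with 555 and 597, and 4 of the 8 Dox rats lay below every Veh rat, while the groups overlapped. The difference of log2(value + 1) between Dox and Veh was -0.18 (SE 0.12, limma p = 0.138, adjusted p = 0.594). Between Dox and Dox+ABT it was -0.33 (SE 0.13, limma p = 0.0150, adjusted p = 0.278), and it was -0.35 (limma p = 0.0106) adjusted for the kind of library and -0.23 (limma p = 0.0952) without Dox rats 1 and 2, none past the threshold. Leaving out any 1 of 4 rats (Dox 5 or 7, Dox+ABT 1 or 12) from the full set brought the p against Dox+ABT under 0.01, down to 0.00337. Within the first kind of library Nr3c1 was lower in Dox than in Veh, at -0.41 (limma p = 0.00819), and within the second the difference was 0.068 (limma p = 0.671). Dox+ABT and Veh differed by 0.14 (limma p = 0.239).

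Hsd11b1 encodes the reductase that turns inactive 11-dehydrocorticosterone into corticosterone. Its normalized counts were 687 to 1343 in Veh with a median of 1048, 640.3 to 1243 in Dox with a median of 857, and 698 to 901 in Dox+ABT with a median of 796. All 8 Dox+ABT rats lay below the Veh median, yet none lay below every Veh rat. The log2 difference between Dox+ABT and Veh was -0.34 (SE 0.13, limma p = 0.0131, adjusted p = 0.136), and after adjustment for the kind of library it was -0.13 (limma p = 0.204). The kinds of library differed in this gene, since 6 Veh rats of the second kind ran from 983 to 1343, against 687 to 1047 in 4 Veh rats of the first kind, with some overlap. The pooled p fell under 0.01 when Veh rat 5, 10 or 11 was left out, down to 0.00306. Between Dox and Veh the difference was -0.18 (limma p = 0.175), and between Dox and Dox+ABT 0.16 (limma p = 0.242).

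Fkbp5, the receptor's inducible co-chaperone, was higher in Dox than in both other groups. Veh rats lay in a narrow band of normalized counts, from 1739 to 1968 with a median of 1879.7 (1861 ± 83.4, mean ± SD, n = 10). Dox rats 1 and 2 had 4011 and 3998, and the other 6 Dox rats ran from 1859.8 to 2278 (2557 ± 904, mean ± SD, n = 8, for all 8). Dox+ABT rats ran from 1537 to 2115 with a median of 1828 (1818 ± 178, mean ± SD, n = 8). Thus 6 of the 8 Dox rats lay above every Veh rat and 4 above every Dox+ABT rat, with a gap between rats 1 and 2 and all others. The log2 difference from Veh was 0.39 (SE 0.12, limma p = 0.00286, adjusted p = 0.247), a 1.31-fold level with a 95% interval of 0.15 to 0.64 on the log2 scale. From Dox+ABT the difference was 0.43 (SE 0.13, limma p = 0.00202, adjusted p = 0.177). Without Dox rats 1 and 2 both comparisons missed the threshold, at 0.15 (limma p = 0.0286) and 0.19 (limma p = 0.0102). Within the first kind of library Dox exceeded Veh by 0.52 (limma p = 0.00966), and within the second, which holds neither of those rats, the difference was 0.17 (limma p = 0.0804). The difference was 0.36 (limma p = 0.00495) from Veh and 0.47 (limma p = 0.000707) from Dox+ABT after adjustment for the kind of library. Dox+ABT and Veh differed by -0.038 (limma p = 0.751), with a 95% interval of -0.28 to 0.21.

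Sgk1, a kinase that acts on ion channels and transporters and is a classical target of corticosteroids, was higher in Dox than in Veh. Normalized counts were 633 to 1380.1 in Veh with a median of 956, and 739.6 to 1409.8 in Dox+ABT with a median of 1217. In Dox the 2 highest rats, 1 and 2, had 3222 and 3008, rats 10 and 9 had 1883 and 1863, and the other 4 ran from 735 to 1186. Those 4 highest rats, all of the first kind of library, lay above every Veh and every Dox+ABT rat. The log2 difference between Dox and Veh was 0.66 (SE 0.23, limma p = 0.00686, adjusted p = 0.307), a 1.58-fold level, with a 95% interval of 0.20 to 1.12, and 0.32 (limma p = 0.109) without rats 1 and 2. With any 1 of 8 rats left out (Veh 1, 2, 4 or 9, or Dox 1, 2, 9 or 10) the p-value rose over 0.01, to at most 0.0249. Between Dox and Dox+ABT the difference was 0.41 (limma p = 0.0955) over all rats and 0.61 (limma p = 0.00138), past the threshold, adjusted for the kind of library. Dox+ABT and Veh differed by 0.25 (limma p = 0.281), or -0.13 (limma p = 0.473) adjusted for the kind of library. The difference was 0.81 (limma p = 0.000731) between Dox and Veh within the first kind and 0.11 (limma p = 0.590) within the second. Sgk1 is the only 1 of the 10 genes with several deposited rows, and the 4 rows were summed.

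Tsc22d3 encodes the glucocorticoid-induced leucine zipper, an anti-inflammatory protein. Its normalized counts were 315 to 895 in Veh with a median of 591, 392 to 1128 in Dox with a median of 703, and 607 to 881 in Dox+ABT with a median of 733. Dox rats 2 and 1 were the highest of the 26, with 1128 and 1059.7, whereas 3 Dox rats of the second kind of library (5, 7 and 14) lay at 496, 392 and 434, below every Dox+ABT rat. None of the comparisons passed, with log2 differences of 0.25 (limma p = 0.228) between Dox and Veh, 0.36 (limma p = 0.0936) between Dox+ABT and Veh, and -0.10 (limma p = 0.637) between Dox and Dox+ABT. Adjusted for the kind of library these were 0.073, -0.024 and 0.097, so that the latter pair changed sign.

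Errfi1 encodes a feedback inhibitor of the epidermal growth factor receptor. Normalized counts were 426 to 590.2 in Veh with a median of 489.7, and 408 to 493 in Dox+ABT with a median of 455. Dox rats 2 and 1 had 908 and 793, and the other 6 ran from 397 to 528, inside the range of Veh at its upper end and just below it at its lower end. The log2 difference was 0.15 (limma p = 0.201) between Dox and Veh and 0.29 (limma p = 0.0259) between Dox and Dox+ABT, neither past the threshold, and 0.13 (limma p = 0.263) and 0.31 (limma p = 0.0178) adjusted for the kind of library. Without that adjustment, and with 1 rat left out, the p against Dox+ABT was under 0.01 only for Dox rat 13, at 0.00610. Dox+ABT and Veh differed by -0.14 (limma p = 0.252). Without rats 1 and 2 the difference between Dox and Veh turned to -0.056 (limma p = 0.482).

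Pdk4 and Ddit4 act on metabolism, the former as a kinase that holds back pyruvate dehydrogenase and the latter as an inhibitor of mTORC1 signaling. Pdk4 was scarce, with normalized counts of 5.50 to 50.4 in Veh with a median of 25.1, and 10.2 to 25.7 in Dox+ABT with a median of 20.5. Dox rats 2 and 1 had 109 and 97.7, against 17.2 to 43.2 in the other 6, and 6 of the 8 Dox rats lay above every Dox+ABT rat. Pdk4 was higher in Dox than in Dox+ABT by 1.02 (SE 0.37, limma p = 0.00948, adjusted p = 0.246) on the log2 scale, and the difference was 0.55 (limma p = 0.108) without rats 1 and 2 and 1.05 (limma p = 0.00867) adjusted for the kind of library. Between Dox and Veh it was 0.74 (limma p = 0.0403), and between Dox+ABT and Veh -0.27 (limma p = 0.439). The difference between Dox and Veh was 1.24 (limma p = 0.00876) within the first kind of library, 0.063 (limma p = 0.905) within the second, and 0.28 (limma p = 0.384) without rats 1 and 2. Leaving out any 1 of 10 rats (Dox 1, 2, 9 or 10, Dox+ABT 1, 2, 5, 6, 11 or 12) raised the p against Dox+ABT over 0.01, to at most 0.0301, and at so few counts counting error adds to the spread.

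For Ddit4, normalized counts were 1046 to 1711 in Veh with a median of 1338, 962 to 2301 in Dox with a median of 1532, and 792 to 1507 in Dox+ABT with a median of 908. Of the Dox+ABT rats, 3 (rats 1, 2 and 12) had 1378 to 1507 and 5 had 792 to 946, the latter all below every Veh rat. All 8 Dox rats lay above the Dox+ABT median and 4 above every Dox+ABT rat. Ddit4 was higher in Dox than in Dox+ABT by 0.52 (SE 0.17, limma p = 0.00441, adjusted p = 0.197), and by 0.33 (limma p = 0.0494) without Dox rats 1 and 2, the latter not past the threshold. Leaving out any 1 of 7 rats (Dox 1, 2 or 10, Dox+ABT 3, 4, 5 or 6) also raised that p over 0.01, to at most 0.0141. Dox+ABT and Veh differed by -0.32 (limma p = 0.0570), or -0.45 (limma p = 0.00986) adjusted for the kind of library, lower in Dox+ABT. Within the first kind of library that difference was -0.20 (limma p = 0.280), not past the threshold, and the second kind holds a lone Dox+ABT rat. Between Dox and Veh the difference of Ddit4 was 0.20 (limma p = 0.212) over all rats, 0.14 (limma p = 0.359) adjusted for the kind of library and 0.016 (limma p = 0.920) without Dox rats 1 and 2. It was 0.57 (limma p = 0.00751) within the first kind of library and -0.33 (limma p = 0.0313) within the second, and the contrast between the kinds was not tested.

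Klf9 and Zbtb16 encode zinc finger transcription factors, and Klf9 is a known target of glucocorticoid and thyroid hormone in neurons. Normalized counts of Klf9 were 2012 to 4480 in Veh with a median of 2650, 2248 to 9073 in Dox with a median of 2865, and 1589 to 2577 in Dox+ABT with a median of 1857. Here the high rat of the Dox group was not 1 or 2 but rat 5, of the second kind of library, and 6 of the 8 Dox+ABT rats lay below every Veh rat. Klf9 was lower in Dox+ABT than in Veh, with a log2 difference of -0.63 (SE 0.21, limma p = 0.00669, adjusted p = 0.118), and higher in Dox than in Dox+ABT by 0.77 (SE 0.23, limma p = 0.00195, adjusted p = 0.175). The latter difference was 0.81 (limma p = 0.00369) without Dox rats 1 and 2, past the threshold, and 0.49 (limma p = 8.9e-05) within the first kind of library, and with any 1 rat left out, rat 5 included, it ran from 0.56 to 0.85 and passed. Dox and Veh differed by 0.14 (limma p = 0.507), and by -0.064 without Dox rat 5. The difference between Dox+ABT and Veh was -0.28 (limma p = 0.107) adjusted for the kind of library, no longer past the threshold. Leaving out 1 of 9 rats (Veh 1, 2, 4 or 12, or Dox+ABT 1, 2, 5, 6 or 11) also raised its p over 0.01, to at most 0.0148.

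Zbtb16, a repressor with a BTB domain that is strongly induced by glucocorticoids in many cells, had normalized counts of 634 to 1329 in Veh with a median of 1057, 754 to 2926 in Dox with a median of 1149.7, and 599 to 921 in Dox+ABT with a median of 699. Dox rats 5, 7, 1 and 2 were the 4 highest of the 26, with 2926, 1728, 1595 and 1374, while the other 4 Dox rats lay within the Veh range. Each Dox+ABT rat was below the Veh median. Zbtb16 was higher in Dox than in Dox+ABT by 0.74 (SE 0.22, limma p = 0.00179, adjusted p = 0.168), and by 0.65 (limma p = 0.0105) without Dox rats 1 and 2, just short of the threshold. That difference was 0.67 (limma p = 0.00352) adjusted for the kind of library, and 0.52 (limma p = 0.0119) within the first kind, not past the threshold. Dox and Veh differed by 0.36 (limma p = 0.0875), or 0.18 (limma p = 0.306) without Dox rat 5, and Dox+ABT and Veh by -0.38 (limma p = 0.0726). Between Dox and Veh the difference was 0.062 (limma p = 0.775) within the first kind and 0.83 (limma p = 0.0165) within the second.

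**Figure D1:**
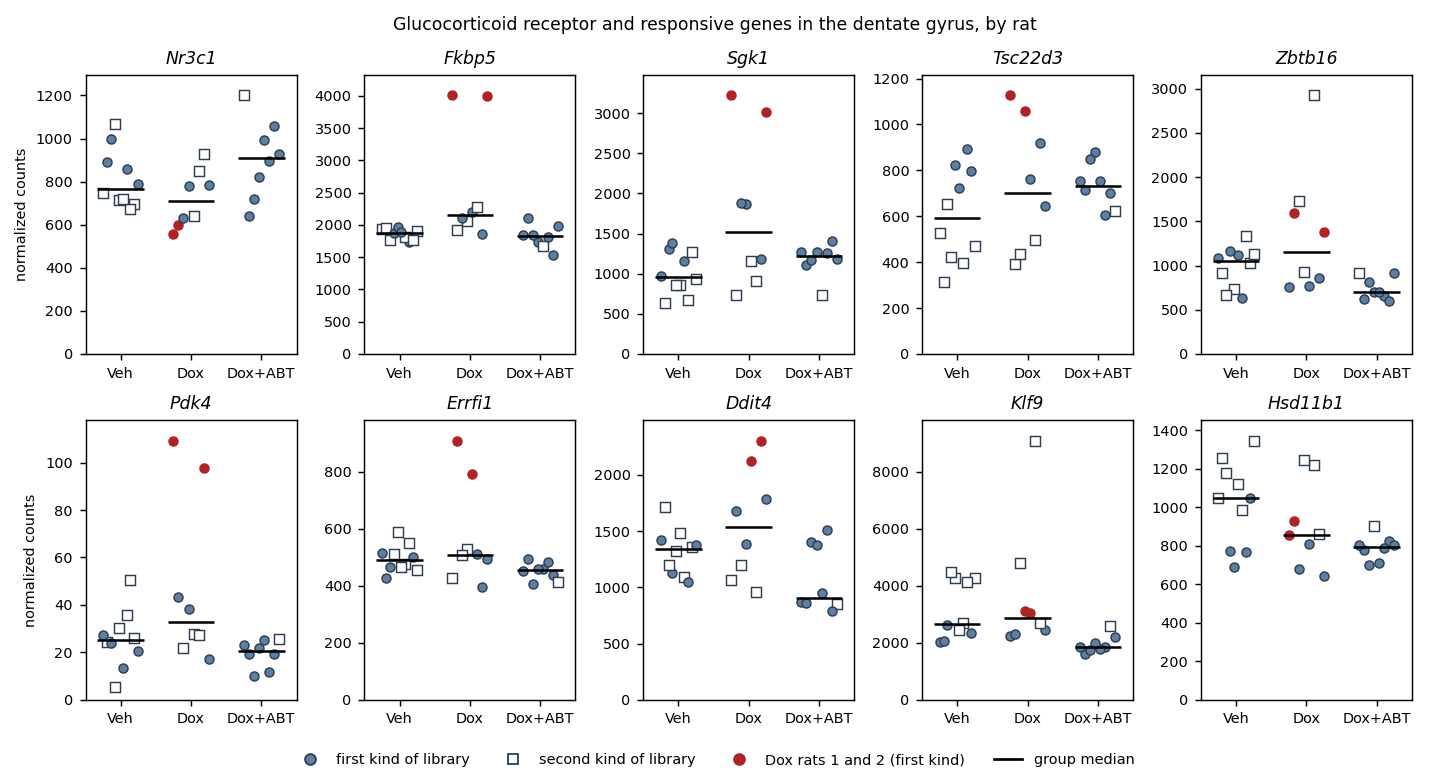
Normalized counts (vertical axis, linear from 0) of the 10 genes in each of the 26 rats, by group (horizontal axis), with filled circles for the first kind of library, open squares for the second, red circles for Dox rats 1 and 2, and a bar for the group median. Rats 1 and 2 are the 2 highest of all in Fkbp5, Sgk1, Tsc22d3, Pdk4, Errfi1 and Ddit4 and the 2 lowest in Nr3c1, whereas Dox rat 5 is highest in Zbtb16 and Klf9.

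Over the 10 genes, 2 passed p under 0.01 between Dox and Veh (Fkbp5 and Sgk1, both higher in Dox), where 2.87% of all tested genes passed and 1.02% passed as higher in Dox. Between Dox+ABT and Veh 1 passed (Klf9, lower), against 7.84% of all genes, a share near that background. Between Dox and Dox+ABT 5 passed (Fkbp5, Zbtb16, Pdk4, Ddit4 and Klf9), all higher in Dox, against 4.03% of all genes in either direction and 2.32% as higher in Dox. None of the 10 passed an adjusted p of 0.05 in any comparison (limma, Benjamini-Hochberg over all tested genes), the smallest being 0.118, and unadjusted p-values under 0.05 were found for 3, 2 and 7 of them, against 10.2%, 22.5% and 12.7% of all tested genes. The median log2 difference of the 10 genes was 0.23 for Dox against Veh, -0.20 for Dox+ABT against Veh, and 0.42 for Dox against Dox+ABT, beside medians of 0.0050, -0.00086 and -0.0014 over all genes. The 3 comparisons share their groups, so their values are not independent.

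Adjusted for the kind of library, 2 of the 10 passed for Dox against Veh (Fkbp5 and Sgk1, background 2.7%), 1 for Dox+ABT against Veh (Ddit4, lower, background 1.37%) and 6 for Dox against Dox+ABT (the 5 named above and Sgk1, background 4.76%). Without Dox rats 1 and 2, a choice made after their values were seen, 0 of the 10 passed between Dox and Veh in limma (background 1.16%) with 1 at an unadjusted p under 0.05 (background 4.89%), and 1 between Dox and Dox+ABT (Klf9, background 2.97%), with 4 at p under 0.05 (background 11.8%), among them Fkbp5 and Zbtb16 at 0.0102 and 0.0105. The median difference of the 10 genes was then 0.089 for Dox against Veh and 0.18 for Dox against Dox+ABT. Both calls between Dox and Veh and 4 of the 5 between Dox and Dox+ABT were therefore not made without these 2 rats.

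**Figure D2:**
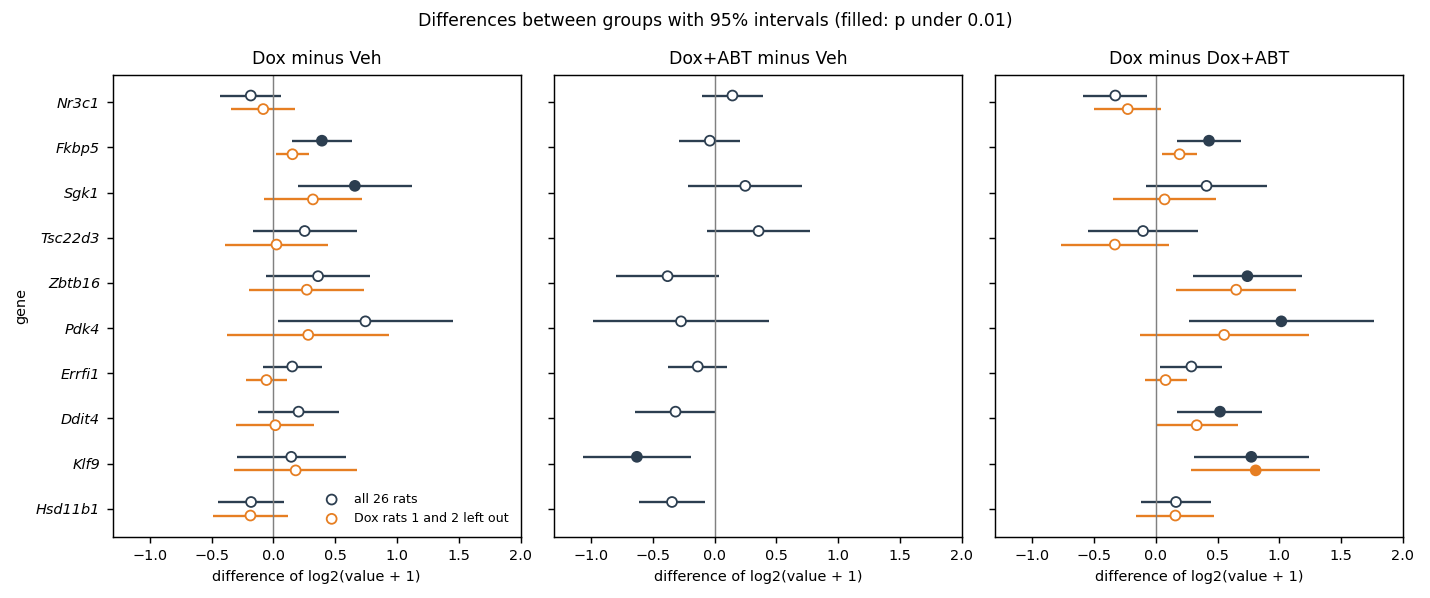
Differences of log2(value + 1) between groups (horizontal axis) for the 10 genes (vertical axis) with 95% intervals from limma, over all 26 rats (dark) and with Dox rats 1 and 2 left out (orange), where filled points have p under 0.01. With all rats Fkbp5 lies at 0.39 and Sgk1 at 0.66 between Dox and Veh, and without the 2 rats they lie at 0.15 and 0.32, whereas Klf9 between Dox and Dox+ABT is 0.77 and 0.81.

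In 6 of the 10 genes (Fkbp5, Sgk1, Tsc22d3, Pdk4, Errfi1 and Ddit4), Dox rats 1 and 2 were the 2 highest of the 26 rats. The same pair was highest in 1002 of the 15595 tested genes (6.43%), more than any other pair of rats, and lowest in 736 (4.72%). Of 47 tested genes on a list of other glucocorticoid-responsive genes, the pair was highest in 25 (53.2%) and lowest in 2. The pair was picked for its values in the first genes, so these shares describe 2 libraries and not a group. Both the 10 genes and the list of 47 were chosen with earlier results of these data known, so the shares are no independent test.

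The metallothionein Mt1, which binds zinc and copper, reached 1492 and 1643 normalized counts in the pair and at most 225 in any other rat. Cdkn1a, the cyclin-dependent kinase inhibitor p21 and also a target of p53, reached 510.4 and 530.3, with at most 109 elsewhere. Map3k6, a stress-activated kinase, had 128 and 137 against at most 23.8. Of the 47 genes these 3 showed the widest gaps, taken as the ratio of the lower rat of the pair to the highest of the remaining 24. Sult1a1, a phenol sulfotransferase, had 791 and 792 against at most 399. Mfsd2a, the lipid transporter of brain endothelium, had 1117 and 1241 against at most 445. The inhibitor of NF-κB Nfkbia had 731 and 752 against at most 341. In each of the 6 genes both rats lay above all of the other 24.

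**Figure D3:**
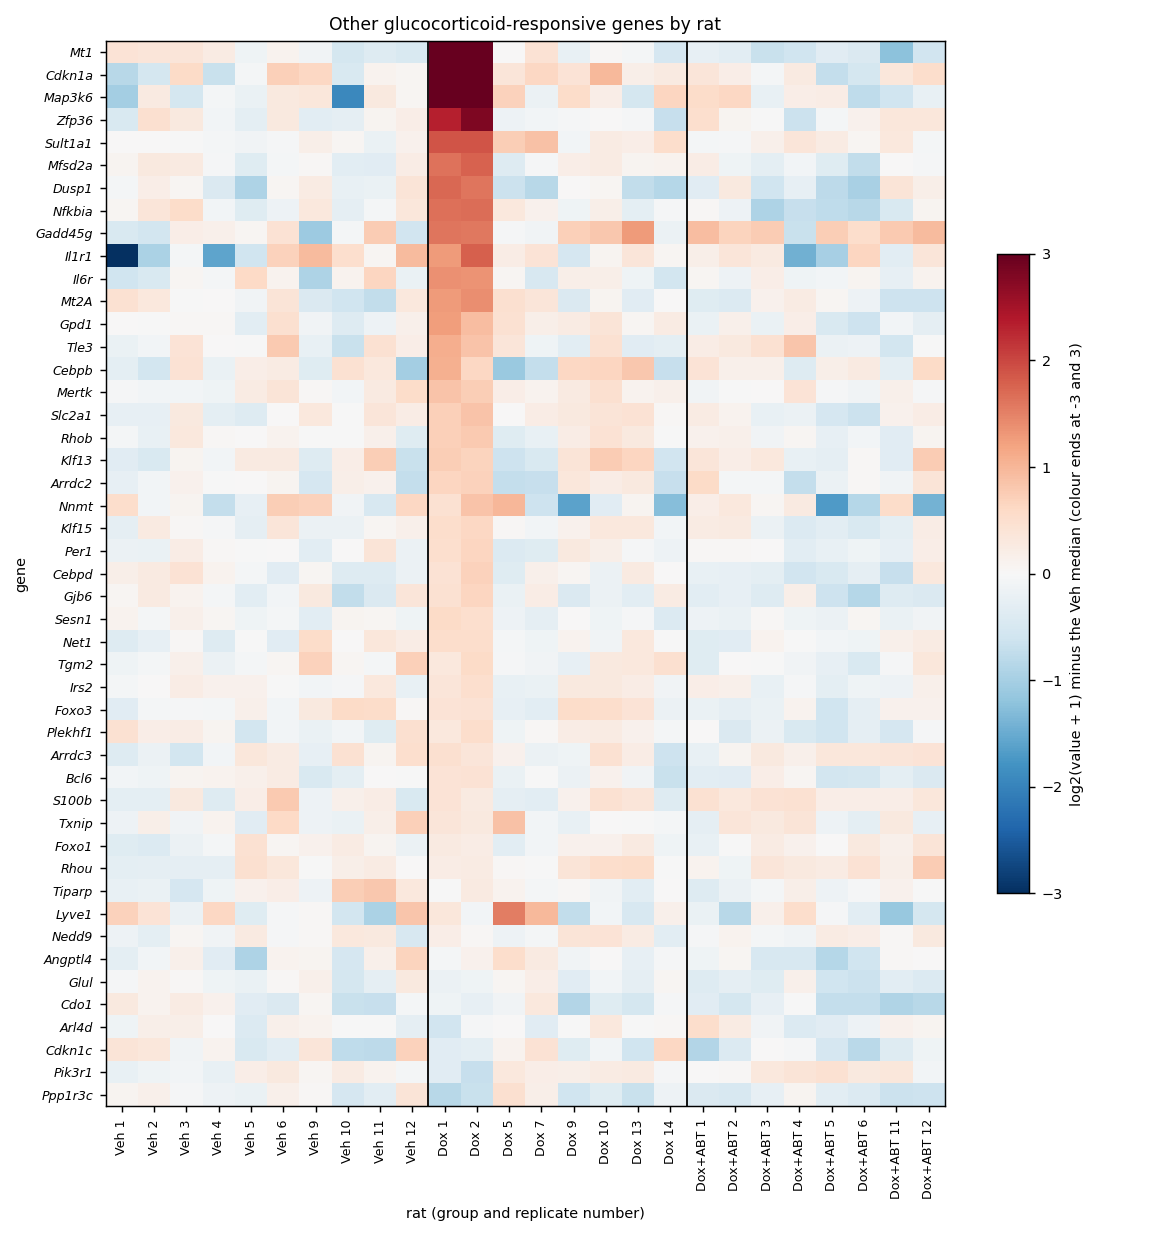
Colour gives log2(value + 1) minus the Veh median for the 47 other glucocorticoid-responsive genes (vertical axis, ordered by their sum in Dox rats 1 and 2) in the 26 rats (horizontal axis, groups divided by lines), with the colour ending at -3 and 3. Columns Dox 1 and Dox 2 are red in most genes, with Mt1, Cdkn1a and Map3k6 at the top, and no other rat reaches the dark red end of the scale.

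At p under 0.01, 5 of the 47 were higher in Dox than in Veh and 0 were lower, where 1.02% of all genes passed as higher in Dox. Those were Sult1a1 at 0.79 (limma p = 0.000232), Gpd1 at 0.49 (limma p = 0.00142), Cdkn1a at 1.20 (limma p = 0.00270), Gadd45g at 0.82 (limma p = 0.00496) and Map3k6 at 1.21 (limma p = 0.00777). Gpd1 is the cytosolic glycerol-3-phosphate dehydrogenase, and Gadd45g belongs to a family induced by stress and DNA damage. Between Dox+ABT and Veh only Glul, the glutamine synthetase of astrocytes, passed, at -0.30 (limma p = 0.00965), where 7.84% of all genes did. Adjusted for the kind of library Glul was at -0.13 (limma p = 0.136) and the transcription factor Foxo3 passed instead, at -0.42 (limma p = 0.00319). Between Dox and Dox+ABT 10 were higher in Dox and 0 lower, where 2.32% of all genes passed as higher. Gpd1 at 0.66 (limma p = 0.000116), Nfkbia at 0.90 (limma p = 0.000837), Plekhf1 at 0.48 (limma p = 0.00158), Sult1a1 at 0.66 (limma p = 0.00237) and Slc2a1, the glucose transporter of endothelium, at 0.47 (limma p = 0.00295) had the smallest p-values. The others were Mt1 at 1.32 (limma p = 0.00322), the transcription factor Cebpd at 0.44 (limma p = 0.0060), Cdkn1a at 1.10 (limma p = 0.00768), the phagocytic receptor Mertk at 0.33 (limma p = 0.00969) and Mfsd2a at 0.63 (limma p = 0.00993). Adjusted for the kind of library the counts higher in Dox were 4 against Veh, without Map3k6, and 13 against Dox+ABT, where 1.07% and 2.73% of all genes passed as higher. These 13 held the 10 named and Foxo3, Klf15 and Rhob. The list's median difference was 0.15, -0.086 and 0.27 in the order Dox against Veh, Dox+ABT against Veh and Dox against Dox+ABT. Without Dox rats 1 and 2, 1 gene passed between Dox and Veh, Sult1a1 at 0.43 (limma p = 0.000813), where 0.372% of all genes passed as higher, and the list median was 0.023. For Dox against Dox+ABT 3 then passed (Gpd1, Nfkbia and Mt1), where 1.82% of all genes passed as higher, and the list median was 0.11. Sult1a1 ran from 204 to 399 in those 6 Dox rats and from 186 to 241 in Veh.

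Proteins that fold, carry or assist the receptor and the hormone formed a list of 33 genes, of which 29 were tested. Of them 1 was lower and 0 higher in Dox than in Veh, where 1.85% of all genes passed as lower, a share near that of the list, whose median was -0.022. That gene was Fkbp4, the co-chaperone that takes the place of Fkbp5 in the receptor complex when hormone binds and links it to dynein. Fkbp4 had 1229 and 1353 normalized counts in Dox rats 1 and 2, from 2183 to 3094 in the other 6 Dox rats and from 2154 to 3173 in Veh. The pair lay below all other rats, in the opposite direction to Fkbp5, and the difference from Veh was -0.36 (limma p = 0.00891), or -0.14 (limma p = 0.152) without them. Next in order of p came the chromatin remodeler Smarca4 at -0.21 (limma p = 0.0228) and the peptide hormone Crh at -0.59 (limma p = 0.0260), neither past the threshold. Between Dox+ABT and Veh none of the 29 passed in limma, with 11 at an unadjusted p under 0.05, where 22.5% of all genes were. Between Dox and Dox+ABT only Crhbp, which binds and holds back Crh, passed, at -0.67 (limma p = 0.00171), with 31.7 to 89.5 counts in Dox and 51.4 to 107 in Dox+ABT, where 1.71% of all genes passed as lower, a share near that of the list. Dox rats 1 and 2 were the 2 lowest of the 26 in Crhbp, and without them the difference was -0.48 (limma p = 0.0178), not past the threshold. Adjusted for the kind of library 4 of the 29 passed in that comparison (background 4.76%), Crhbp at -0.64 (limma p = 0.00293), Fkbp4 at -0.31 (limma p = 0.00798) and the co-chaperone Stip1 at -0.27 (limma p = 0.00104), lower in Dox, and H6pd at 0.34 (limma p = 0.00316), higher in Dox. H6pd supplies the cofactor of the reductase encoded by Hsd11b1. Fkbp4 was at -0.27 (limma p = 0.0118) between Dox and Veh in that fit, no longer past the threshold.

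How Fkbp5 varied with the other 9 genes over the 26 rats was examined on deviations of log2(value + 1) from the group means, with 9 relations and two-sided permutation tests. The closest was Errfi1, with r = 0.74 (permutation p = 0.000270, adjusted p = 0.00243) and rho = 0.48 (permutation p = 0.0152, adjusted p = 0.0684). Sgk1 followed, with r = 0.59 (permutation p = 0.00159, adjusted p = 0.00715) and rho = 0.40 (permutation p = 0.0437, adjusted p = 0.0935). For Ddit4 the values were r = 0.54 (permutation p = 0.00335, adjusted p = 0.010) and rho = 0.39 (permutation p = 0.0519, adjusted p = 0.0935), and for Nr3c1, the sole negative relation that passed, r = -0.49 (permutation p = 0.00797, adjusted p = 0.0179) and rho = -0.48 (permutation p = 0.0141, adjusted p = 0.0684). By Pearson's r 6 of the 9 had an adjusted p under 0.05 (also Tsc22d3 at 0.49 and Pdk4 at 0.44), and by rank none did, with a smallest adjusted p of 0.0684. On deviations from the means of group and kind of library 4 of the 9 passed by r, since Ddit4 was then at 0.40 (adjusted p = 0.0741) and Pdk4 at 0.38 (adjusted p = 0.0775), and by rank Nr3c1 passed, with rho = -0.55 (adjusted p = 0.0397). Zbtb16, Klf9 and Hsd11b1 had r of 0.11, -0.14 and -0.0018. Zbtb16 was at 0.69 within the first kind of library (16 rats, permutation, adjusted p = 0.00804) and -0.69 within the second (9 rats, exact permutation, adjusted p = 0.184). Klf9 was at 0.66 (permutation, adjusted p = 0.00938) and -0.59 (exact permutation, adjusted p = 0.291), and the difference between the kinds was not tested. The 2 rats farthest from the median of Fkbp5 were Dox 1 and 2, and without them r was -0.21 for Errfi1, -0.088 for Sgk1, 0.13 for Ddit4, -0.39 for Pdk4, 0.080 for Tsc22d3 and -0.37 for Nr3c1, with no adjusted p under 0.05. The positive relations, of Errfi1, Sgk1, Ddit4, Pdk4 and Tsc22d3, thus rest on those 2 rats. For Nr3c1 the direction was the same without them, with permutation p = 0.0749 and adjusted p = 0.337. Its r was -0.48 within the first kind of library (16 rats, permutation p = 0.0579) and -0.69 within the second (9 rats, exact permutation p = 0.0345, adjusted p = 0.184). Within the first kind of library r was 0.81 for Errfi1 and 0.72 for Sgk1 (16 rats), and within the second, which lacks Dox rats 1 and 2, -0.40 and -0.36 (9 rats, the lone Dox+ABT rat left out).

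As a description, deviations from the means of group and kind of library were correlated among the 10 genes, with and without those rats. Sgk1 and Tsc22d3 moved together with r = 0.81 over 26 rats and 0.76 over 24. Klf9 and Zbtb16 had r = 0.83 and 0.85, and Ddit4 and Nr3c1 had r = -0.74 and -0.70. For these 3 pairs the value changed little when the 2 rats were left out. That between Fkbp5 and Errfi1 went from 0.71 to -0.29. All points share the dissection and library of each rat.

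**Figure D4:**
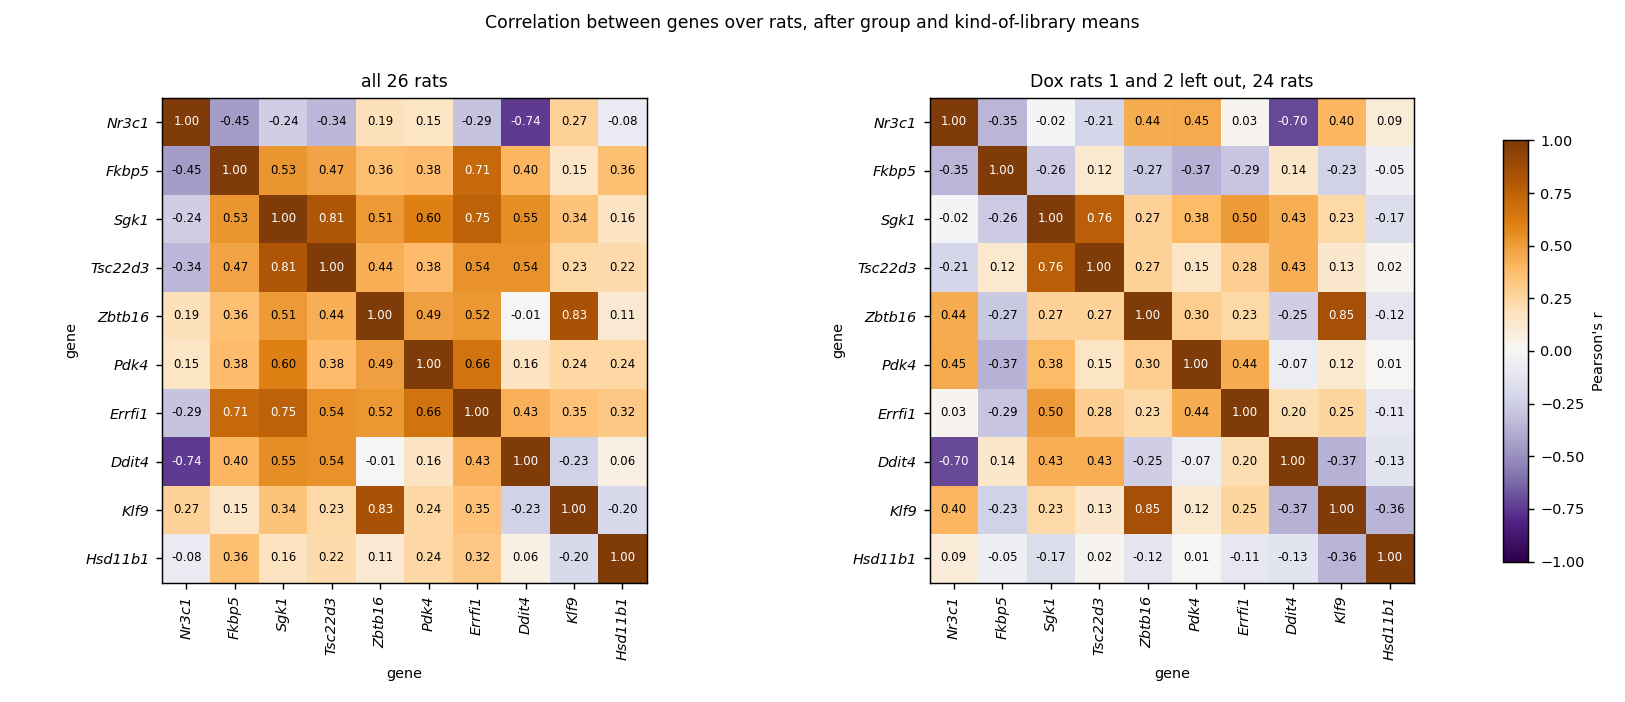
Pearson's r between each pair of the 10 genes (both axes) over rats, on log2(value + 1) minus the means of group and kind of library, for all 26 rats (left) and for the 24 rats without Dox 1 and 2 (right). The row of Fkbp5 loses its high values in the right panel, whereas Sgk1 with Tsc22d3, Klf9 with Zbtb16, and Ddit4 with Nr3c1 keep theirs.

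The 5 genes whose deviations were most like those of Fkbp5, out of 13666 whose mean reached 20 normalized counts, were Lmo2 (r = 0.91, and 0.68 without Dox rats 1 and 2), Plau (r = 0.89, and 0.75 without Dox rats 1 and 2), Ubap1l (r = 0.89, and 0.60 without Dox rats 1 and 2), Mt1 (r = 0.88, and 0.22 without Dox rats 1 and 2) and Zbtb8a (r = 0.88, and 0.54 without Dox rats 1 and 2). Lmo2, a transcriptional adaptor, had 836 and 777 normalized counts in the pair and from 269 to 479 in the other 24 rats. Plau, the urokinase plasminogen activator, had 205 and 188 against 14.6 to 85.0. In each of the 5 genes the pair lay above all other rats. This follows largely from the choice of genes, since the deviations of Fkbp5 were farthest in that pair.

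Lists of cell type markers and of other programs were measured beside these genes, and their part in the differences was not tested. In bulk RNA, fewer cells of a type and less RNA per cell cannot be told apart. Granule cell markers were present in every group, with a summed level of 10947 to 15518 in Veh, 11649.8 to 15448 in Dox and 10352 to 13611 in Dox+ABT, so that the ranges overlapped. Of the 8 tested, 1 was lower in Dox than in Veh, the steroid hydroxylase Cyp7b1 at -0.31 (limma p = 0.00576), with Pdzd2 at 0.36 (limma p = 0.0823) next in p. Cyp7b1 was at -0.17 (limma p = 0.0771) without Dox rats 1 and 2, so that 0 passed in limma and 0 had p under 0.05. Markers of the neighbouring CA fields summed to 8718 to 18609, 9202 to 20789.6 and 9185 to 25209 in the same order, with none of 6 past the threshold in limma and 0 at p under 0.05, where 10.2% of all genes were. The smallest p-values there were those of Cpne4 at 0.33 (limma p = 0.144) and Bok at 0.35 (limma p = 0.158).

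Microglia markers summed to 4523 to 7671, 4379 to 6298 and 4252 to 6951, and 5 of 10 were lower in Dox than in Veh, among them Aif1 at -0.61 (limma p = 0.00237), where 1.85% of all tested genes passed as lower in Dox. This count was 3 adjusted for the kind of library and 0 without Dox rats 1 and 2 in limma, where 1.63% and 0.789% of all genes passed as lower, with a list median of -0.33 over all rats and -0.21 without them. Dox rats 1 and 2 were the 2 lowest rats in 6 of these 10. Astrocyte markers summed to 55062 to 81514, 49837 to 59360 and 50255 to 74104, with 3 of 10 lower in Dox, Gfap at -0.75 (limma p = 4.07e-05) and Aqp4 at -0.43 (limma p = 0.00132) among them, and 3 without Dox rats 1 and 2. For oligodendrocytes the sums were 45483 to 125114, 49571 to 74222 and 52729 to 110364, and 2 of 10 were lower in Dox, among them Cnp at -0.39 (limma p = 0.00721), with 1 adjusted for the kind of library and 0 without Dox rats 1 and 2. In the endothelial list, which shares Slc2a1 with the responsive genes, the sums were 2667 to 6366, 4157 to 5168 and 2386 to 4799, and 2 of 8 were lower in Dox, Slco1a4 at -0.96 (limma p = 0.00110) and Emcn at -0.85 (limma p = 0.00331), and 0 without Dox rats 1 and 2. Without that pair, genes of the microglia, oligodendrocyte and endothelial lists at an unadjusted p under 0.05 numbered 3, 2 and 4, against 4.89% of all genes. The median of the 8 endothelial differences over all rats was 0.23, the median sum was 4472 in Dox and 3630.2 in Veh, and Slc2a1 at 0.37 (limma p = 0.0127) did not pass. Choroid plexus and meningeal markers were low, at 216 to 434, 198 to 537 and 223 to 781, with none of 6 past the threshold in limma and 1 at p under 0.05, Dcn at -0.57 (limma p = 0.0233), followed by Igf2 at -0.27 (limma p = 0.181). Red cell genes, which mark blood left in the tissue, ran more widely, at 2331 to 26011, 3610.2 to 129837 and 3175 to 11582. None of the 5 passed the limma threshold over all rats, and 2 had p under 0.05, where 10.2% of all genes did. After adjustment for the kind of library 5 of 5 passed as higher in Dox than in Veh, against 1.07% of all genes. The smallest p-values over all rats were those of Alas2 at 1.21 (limma p = 0.0372) and Slc4a1 at 1.95 (limma p = 0.0423), and Dox rats 1 and 2 had sums of 25751 and 29133.

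Clock genes were included because glucocorticoids follow the day, and 2 of 19 were lower and 1 higher in Dox than in Veh, where 1.85% of all genes passed as lower and 1.02% as higher. Without Dox rats 1 and 2 the counts were 2 lower (Dbp and Nr1d1) and 0 higher, with Arntl at 0.23 (limma p = 0.0125). The output gene Dbp was lower, with a difference of -0.62 (limma p = 4.11e-05), and the activator Arntl higher by 0.27 (limma p = 0.00186), and Dbp was also lower in Dox+ABT than in Veh, at -0.63 (limma p = 3.45e-05). Per1, a clock gene and a glucocorticoid target, was highest in Dox rats 1 and 2, with 1593 and 1773 normalized counts against at most 1468 elsewhere. Of 18 immediate early genes, 2 were lower in Dox, the activity-regulated Npas4 at -1.16 (limma p = 0.000828) and Arc at -0.76 (limma p = 0.00883), and Arc was at 345 and 373 counts in the pair against a Veh median of 1464. Without the pair 1 of the 18, Npas4, was lower, and Arc was at -0.37 (limma p = 0.131). Over all rats, the pair included, adjustment for the kind of library also left 1 lower, with Arc at -0.69 (limma p = 0.0156). Dusp1, a phosphatase on both lists, had 774 and 712 in the pair against at most 307 elsewhere. Of 13 hypoxia response genes 2 were higher in Dox, Vegfa at 0.72 (limma p = 0.00192) and Adm at 1.11 (limma p = 0.00477), and 1 without the pair, Vegfa, with Adm at 0.83 (limma p = 0.0409).

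Between Dox and Dox+ABT, where 2.32% of all genes passed as higher and 1.71% as lower in Dox, genes past the threshold numbered 0 higher and 0 lower of 10 in microglia, 0 higher and 1 lower of 10 in astrocytes, 0 higher and 2 lower of 10 in oligodendrocytes, 1 higher and 2 lower of 8 in endothelium, 0 higher and 0 lower of 5 in red cells, 0 higher and 0 lower of 19 in the clock, 2 higher and 2 lower of 18 among immediate early genes and 2 higher and 0 lower of 13 in the hypoxia response, and 0 in the granule cell, CA field and choroid plexus lists. Adjusted for the kind of library (2.73% of all genes higher and 2.04% lower) the counts were 0 higher and 2 lower in microglia, 1 higher and 2 lower in astrocytes, 0 higher and 3 lower in oligodendrocytes, 0 higher and 1 lower in the choroid plexus list and 1 higher and 0 lower in granule cells, and as before in the others. Without Dox rats 1 and 2 (1.82% of all genes higher and 1.15% lower) they were 1 higher and 1 lower in endothelium, 1 higher and 1 lower among immediate early genes, 1 higher and 0 lower in the hypoxia response and 0 higher and 1 lower in the choroid plexus list, and as over all rats in the others. For Dox+ABT against Veh, where 3.89% of all genes passed as higher and 3.95% as lower in Dox+ABT, the counts were 0 higher and 2 lower in microglia, 0 higher and 1 lower in astrocytes, 1 higher and 0 lower in oligodendrocytes, 0 higher and 1 lower in granule cells, 0 higher and 2 lower in the clock, 0 higher and 1 lower among immediate early genes, 1 higher and 2 lower in the hypoxia response and 0 in the other lists. With the adjustment they were 0 higher and 1 lower in granule cells, 0 higher and 2 lower in the clock, 0 higher and 2 lower among immediate early genes and 0 in the other lists, where 0.641% of all genes passed as higher and 0.731% as lower. No marker with deposited values was at 0 in every rat.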

How the data were processed

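Poly(A) RNA from the DG of 26 rats was sequenced on an Ion Proton instrument. In Partek Flow, the authors trimmed reads, aligned them with STAR (version 2.5.3a in the submitters' processing notes) to build rn6 and normalized counts per row by Median Ratio, with a factor for each library. The deposited values are this normalized signal, in normalized counts per row, for 24012 rows. They are not whole reads where a gene has several rows, so no count test was run.

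Rows were summed by Ensembl gene ID. Differences of log2(value + 1) were fitted with limma 3.58.1 in R 4.3.3 (lmFit, contrasts.fit, eBayes with a variance trend) over all 26 rats, 3 groups and no covariate, for 15595 genes whose mean reached 5, two-sided, with Benjamini-Hochberg adjustment over those genes, and p under 0.01 was the threshold, as in the study. The fit was tested on simulated data. Correlations used 100000 permutations (all orders for 9 rats) and seed 1 in Python 3.11.15 with scipy 1.17.1. Kinds of library were read from the first principal component of within-group deviations over genes whose mean reached 20.

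The members and the gene lists were chosen with earlier results of these data known. All 10 genes were described in every comparison. Of partner and other responsive genes, those past the threshold and the 3 with the smallest p between Dox and Veh in each list were named, of each further list the 2 with the smallest p (except 2 genes that are not reported here), and the 5 genes most like Fkbp5. Map3k6, Mfsd2a, Nfkbia, Per1, Dusp1 and Mt1 were described for their values in Dox rats 1 and 2 after these had been seen. Alternatives were a pseudocount of 0.5 or 5, no filter or one at a mean of 20, quantile and trimmed-mean scaling, arrayWeights, no variance trend, adjustment for library kind, each kind alone, the 2 compared groups alone, the replicate number as a block, single rows, each rat left out and, chosen after their values had been seen, Dox rats 1 and 2 left out. A library held an estimated 10163400 to 24344300 reads, and counting error is small for these genes except Pdk4. A deposited table of sample attributes served only to match column names to samples.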

Additional observations from a re-analysis of the deposited data

Results flagged for a closer look

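The spread of the 10 genes was examined in 30 sets of values, 1 per gene and group, by the gap of the highest or lowest rat to its neighbour as a share of the range of log2 values. In 1 set the gap was above Dixon's 95% critical value, and chance gives this in about 1 set in 20. Sgk1 in Dox+ABT rat 4 was 739.6 normalized counts, the lowest of 8, with a gap of 0.619 of the range against a critical value of 0.526. This rat has the lone Dox+ABT library of the second kind, and Sgk1 ran from 633 to 1269 in Veh and 735 to 1153 in Dox rats of that kind, against 974 to 1380.1 and 1186 to 3222 in the first kind. Dox rats 1 and 2 were not found this way, since the 2 lie close to each other.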

How the results depend on the processing

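The count of the 10 genes past p under 0.01, 2 for Dox against Veh, 1 for Dox+ABT against Veh and 5 for Dox against Dox+ABT, and that of all genes (448, 1222 and 629) moved by over 1.5 times as follows, and the cause was not tested except where fewer rats were used. Without Dox rats 1 and 2 the 10 genes gave 0 between Dox and Veh (181 of all genes) and 1 between Dox and Dox+ABT, and with adjustment for library kind added 0 and 1 (261 and 310 of all genes). With arrayWeights, which weighs libraries by their fit, 4 passed between Dox and Veh and 5 between Dox+ABT and Veh, and 3150, 5297 and 1612 of all genes in the 3 comparisons. Within the first kind of library 5 passed between Dox and Veh and 0 between Dox+ABT and Veh, and 742, 172 and 1281 of all genes, and within the second 0 between Dox and Veh. Adjusted for library kind, 214 of all genes passed between Dox+ABT and Veh. Fits of the 2 groups alone gave 1 between Dox and Veh and 2 between Dox+ABT and Veh, no variance trend 1 between Dox and Veh, and quantile normalization 0 between Dox+ABT and Veh.

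With 1 rat left out the 10 genes gave 1 to 2 for Dox against Veh, 0 to 2 for Dox+ABT against Veh and 3 to 6 for Dox against Dox+ABT (3 without Dox rat 1, 2 or 10 or Dox+ABT rat 5 or 6), and all genes 266 to 707 (lowest without Dox rat 1, highest without Veh rat 11), 695 to 2130 (Dox+ABT rat 5, Veh rat 11) and 419 to 787 (lowest without Dox+ABT rat 5). Fkbp5 passed in all 18 such fits between Dox and Veh, with p up to 0.00984, and Fkbp5, Zbtb16 and Klf9 in all 16 between Dox and Dox+ABT, while Pdk4 passed in 6 and Ddit4 in 9 of these. Equal numbers in different groups mark different rats, and the labels do not say how the rats were numbered. Of 16 pairs of same-numbered rats 6 had deviations correlated over 0.1 (from -0.22 to 0.44). These correlations cannot decide whether equal numbers share a batch or block, since the deviations also hold the kind of library. With the number as a replicate block 5 of the 10 genes passed between Dox and Veh, 3 for Dox+ABT against Veh and 7 between Dox and Dox+ABT, and 765 and 403 of all genes in the first and last.

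Single differences below the threshold changed sign with adjustment for library kind for Sgk1 (Dox+ABT against Veh, -0.13), Tsc22d3 (Dox+ABT against Veh, -0.024) and Tsc22d3 (Dox against Dox+ABT, 0.097), within the first kind of library for Nr3c1 (Dox+ABT against Veh, -0.045), Tsc22d3 (Dox+ABT against Veh, -0.11) and Tsc22d3 (Dox against Dox+ABT, 0.24), within the second for Nr3c1 (Dox against Veh, 0.068), Tsc22d3 (Dox against Veh, -0.044), Errfi1 (Dox against Veh, -0.060) and Ddit4 (Dox against Veh, -0.33), with arrayWeights for Zbtb16 (Dox against Veh, -0.024), Klf9 (Dox against Veh, -0.36) and Tsc22d3 (Dox against Dox+ABT, 0.0093), with quantile normalization for Fkbp5 (Dox+ABT against Veh, 0.025), with the replicate block for Tsc22d3 (Dox against Dox+ABT, 0.29), without Dox rat 5 for Klf9 (Dox against Veh, -0.064), which ran up to 0.22 over the fits with 1 rat left out, without Dox rat 7 for Tsc22d3 (Dox against Dox+ABT, 0.010), which ran down to -0.21, without Dox rats 1 and 2 for Errfi1 (Dox against Veh, -0.056), and without them and adjusted for library kind for Tsc22d3 (Dox against Veh, -0.047), Errfi1 (Dox against Veh, -0.053), Ddit4 (Dox against Veh, -0.0026) and Hsd11b1 (Dox against Dox+ABT, -0.027). Of 960 refitted differences of the 10 genes 847 kept their direction and side of the threshold, 61 lost and 30 gained the threshold. The count of relations of Fkbp5 past an adjusted p of 0.05, 6 over 26 rats, was 0 within the second kind of library and 0 without Dox rats 1 and 2. Among single relations r became 0.66 for Klf9 within the first kind, -0.36 for Sgk1, -0.48 for Pdk4 and -0.40 for Errfi1 within the second, and -0.088, -0.39 and -0.21 without Dox rats 1 and 2.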
